A study of Mus musculus with 12 samples.

Results

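The YAP/TAZ pathway and its target genes were followed in immortalized mouse mesenchymal stem cells that lack or keep Dicer, the enzyme that cuts microRNA precursors into mature microRNAs. The members were 10 genes chosen by name among 21881 rows of the expression table: Yap1, Wwtr1, Tead1, Lats2, Amotl1, Amotl2, Ctgf, Cyr61, Ankrd1 and Axl. All 10 were found, and all 10 were among the 11801 genes with enough signal to test. Polyadenylated RNA was sequenced from 12 libraries, 3 in each of 4 groups. KO_let-7g libraries came from Dicer -/- cells given a synthetic let-7g duplex, which supplies 1 mature microRNA to cells that cannot process their own. KO_siNr6a1 libraries came from Dicer -/- cells given an siRNA against Nr6a1, a nuclear receptor gene. KO_siCtrl libraries came from Dicer -/- cells, and WT_siCtrl libraries from Dicer f/f cells, that received a nontargeting siRNA. All cells were adult bone marrow fibroblasts of strain C57BL/6, kept as monoclonal immortalized lines, transfected at 20 nM and harvested after 48 hours. Because the lines are monoclonal, a difference between Dicer -/- and Dicer f/f cells and a difference between clones cannot be told apart. Both treated groups are set against the same KO_siCtrl libraries and lack the nontargeting siRNA. An effect of a treatment and the loss of an effect of that siRNA cannot be told apart in those comparisons.

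YAP (gene Yap1) and TAZ (gene Wwtr1) are related transcriptional coactivators without a DNA-binding domain of their own. In the nucleus they bind TEAD factors and switch on genes such as Ctgf, Cyr61 and Ankrd1, and in mesenchymal cells they respond to matrix stiffness, cell spreading and cell density. The LATS kinases of the Hippo pathway phosphorylate both proteins and hold them in the cytoplasm, and the angiomotins AMOTL1 and AMOTL2 bind and restrain them. Several of the restraining genes, Lats2 and Amotl2 among them, are themselves known YAP/TAZ targets. Most of this control acts on protein location, which RNA levels do not measure.

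The mature let-7g sequence is shown because the KO_let-7g cells received this microRNA, with the seed in capitals (bases 2 to 8, from RefSeq, GRCm38.p6, chr9:106178846-106178867, plus strand).
let-7g-5p: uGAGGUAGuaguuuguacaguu
Perfect matches to the seed were searched in the longest annotated 3′ UTR of each gene (GENCODE M21, sense strand). No member held CTACCTC, which pairs with all 7 seed bases. Yap1 alone among the 10 held TACCTCA, a match to seed bases 2 to 7 followed by A, which starts at base 2250 of its 2498-base 3′ UTR on chromosome 9.
Yap1 site: ccttgttaTACCTCAatgtccag
TACCTCA stood in the 3′ UTR of 11.1% of the 11219 tested genes with an annotated 3′ UTR. These genes had a median log2 fold change of -0.17 in KO_let-7g against KO_siCtrl cells, against 0.0983 for genes without it. In KO_siCtrl against WT_siCtrl cells the medians were 0.14 with it and 0.0343 without. Yap1 RNA itself was lower in both comparisons, and the part of the site in this was not tested. A match is a description and not a measured binding site.

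Promoters of 4 members that hold the TEAD word are shown as examples, and promoters of Yap1, Wwtr1 and Lats2 held it too. Capitals mark GGAATG or its reverse complement CATTCC, the core word bound by TEAD factors. Each promoter runs from 250 bases before to 50 bases after the RefSeq start (GRCm38.p6, 5′ to 3′ on the gene's strand). Cyr61 (RefSeq Ccn1) lies at chr3:145649936-145650235 on the minus strand, with the word starting at base -103 from the start. Ankrd1 lies at chr19:36119795-36120094 on the minus strand, with the word at -210 and -123. Amotl2 lies at chr9:102717554-102717853 on the plus strand, with the word at -65, and Axl at chr7:25788684-25788983 on the minus strand, with the word at -233.
Cyr61 promoter: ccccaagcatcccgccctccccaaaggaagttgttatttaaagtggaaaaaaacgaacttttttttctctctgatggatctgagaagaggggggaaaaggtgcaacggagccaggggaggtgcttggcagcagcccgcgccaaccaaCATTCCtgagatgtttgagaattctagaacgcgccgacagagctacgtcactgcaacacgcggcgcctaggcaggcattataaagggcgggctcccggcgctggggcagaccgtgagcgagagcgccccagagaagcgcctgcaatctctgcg
Ankrd1 promoter: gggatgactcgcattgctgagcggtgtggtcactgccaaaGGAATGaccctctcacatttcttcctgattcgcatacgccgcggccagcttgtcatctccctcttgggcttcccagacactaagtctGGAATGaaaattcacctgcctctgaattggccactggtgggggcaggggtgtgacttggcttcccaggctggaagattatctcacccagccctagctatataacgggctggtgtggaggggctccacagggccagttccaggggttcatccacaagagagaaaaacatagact
Amotl2 promoter: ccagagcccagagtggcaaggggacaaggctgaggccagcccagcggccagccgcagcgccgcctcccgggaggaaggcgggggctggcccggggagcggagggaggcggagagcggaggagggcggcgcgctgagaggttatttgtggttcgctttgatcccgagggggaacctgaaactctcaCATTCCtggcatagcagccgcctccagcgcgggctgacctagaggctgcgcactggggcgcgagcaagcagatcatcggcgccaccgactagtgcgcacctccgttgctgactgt
Axl promoter: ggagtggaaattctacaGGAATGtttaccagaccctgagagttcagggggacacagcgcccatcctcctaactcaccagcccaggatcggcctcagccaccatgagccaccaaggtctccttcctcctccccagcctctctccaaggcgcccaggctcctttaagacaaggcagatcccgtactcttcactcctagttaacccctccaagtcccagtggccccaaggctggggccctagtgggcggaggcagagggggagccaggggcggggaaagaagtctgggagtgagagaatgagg
A promoter was at hand for 8 members, Ctgf and Tead1 being the others, and at least 1 promoter of 7 of the 8 held the word on either strand, Amotl1 being the exception. Lats2 and Wwtr1 have 2 promoters each in the table, and the second one of Lats2 lacks the word. Counted by promoter, 8 of 10 held it, beside 14.7% of all 32851 promoters of this length in the table. The 2 Wwtr1 promoters overlap and share the same copy of the word, which is thus counted in both. Since the members were chosen by name as pathway or target genes, this share is not separate evidence on TEAD binding.

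Expression is given as FPKM (fragments per kilobase of transcript, scaled to library size), so levels are already divided by length. Nr6a1 averaged 4.22 ± 1.04 FPKM in KO_let-7g, 3.68 ± 0.539 in KO_siNr6a1, 11.7 ± 1.32 in KO_siCtrl and 1.12 ± 0.158 in WT_siCtrl libraries (SD, n = 3 each, as for all means here). It was lower in both treated groups than in KO_siCtrl (log2 fold change -1.30 for KO_let-7g, limma adjusted p = 4.67e-05, and -1.44 for KO_siNr6a1, adjusted p = 7.34e-05). Dicer1 RNA was present in every library, at 2.37 to 4.06 FPKM in the 9 Dicer -/- libraries and 5.58 to 8.24 FPKM in the 3 Dicer f/f libraries, and a value for the whole gene does not show which part was deleted. Yap1 and Ctgf each overlap an annotated gene on the opposite strand and Lats2 one on its own strand, and reads of such genes cannot be told apart here. Of 11 mesenchymal markers, Thy1 was at or near 0 in every library. The summed FPKM of the markers was 1060.4 to 1184 in KO_let-7g, 1396 to 1439 in KO_siNr6a1, 1104 to 1204 in KO_siCtrl and 2569 to 3002 in WT_siCtrl libraries. Most of the WT_siCtrl excess came from the collagen genes Col1a1 and Col1a2, which summed to 499 to 538 FPKM in KO_siCtrl and 1908 to 2377 in WT_siCtrl libraries. The other 9 markers summed to 604 to 667 FPKM in KO_siCtrl and 625 to 715 in WT_siCtrl libraries. Of these, Ly6a, Cd44, Vcam1 and Nt5e were higher in every KO_siCtrl than in every WT_siCtrl library, while Eng, Itgb1 and Pdgfra were lower. Cd44 stood at 83.2 to 92.6 FPKM in KO_siCtrl and 42.1 to 55.5 in WT_siCtrl. Itgb1 stood at 288 to 361 and 365 to 467 FPKM in the same order. The part of these markers in the results was not tested. Summed epithelial markers reached at most 3.09 FPKM and endothelial ones 0.272 FPKM, while 9.48 to 64.8 FPKM of blood markers came mostly from Cd74. In bulk RNA, fewer cells expressing a gene and less RNA per cell cannot be told apart.

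Dicer -/- cells with control siRNA, set against Dicer f/f cells with the same siRNA, had less Yap1, Amotl1, Amotl2 and Ctgf RNA and more Wwtr1, Lats2 and Axl RNA. So 3 of 10 members rose and 4 fell, while 29.1% of all tested genes were called higher and 25.2% lower. Calls are at an adjusted p under 0.05 by limma on log2(FPKM + 1), with Benjamini-Hochberg adjustment over all tested genes, and every log2 fold change below is on that scale. The median log2 fold change of the members was -0.22, against 0.0385 for all tested genes.

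In KO_let-7g against KO_siCtrl cells, Tead1, Amotl1, Lats2 and Axl rose and Yap1 and Wwtr1 fell, 4 and 2 of 10 members, where 27.5% of all tested genes were called higher and 18.2% lower. In KO_siNr6a1 against KO_siCtrl cells Tead1 rose and Wwtr1 and Ankrd1 fell, 1 and 2 of 10 members, beside 13.2% and 16.3% of all tested genes. Set directly against each other, KO_let-7g cells had more Ankrd1, Amotl1 and Lats2 and less Yap1 than KO_siNr6a1 cells, 3 higher and 1 lower, beside 27.6% and 13.3%. KO_let-7g cells differed from WT_siCtrl cells in 6 members, 3 in each direction, beside 35.3% higher and 22.8% lower of all tested genes. KO_siNr6a1 cells differed from WT_siCtrl cells in 9 members, 3 higher and 6 lower, beside 27% and 27.4%. These comparisons share libraries, so their counts are not independent of each other. Another scaling of the libraries, by the median of ratios, changed the balance of calls over all genes: 2639 higher and 2712 lower for KO_let-7g against KO_siCtrl, where the reported fit had 3241 and 2142, and 1973 and 2396 for KO_let-7g against KO_siNr6a1, where the reported fit had 3262 and 1564. It gave 3117 and 3381 for KO_let-7g against WT_siCtrl, beside 4169 and 2696, and 1854 and 1441 for KO_siNr6a1 against KO_siCtrl, beside 1556 and 1918. The median of all genes moved to -0.0138 with it, beside 0.124, in KO_let-7g against KO_siNr6a1, and to -0.00628, beside 0.118, in KO_let-7g against WT_siCtrl. Quantile scaling gave 2219 higher and 2068 lower for KO_let-7g against KO_siNr6a1. Upper quartile scaling turned the balance for KO_siCtrl against WT_siCtrl to 2791 higher and 3412 lower, beside 3439 and 2974 in the reported fit, with a median over all genes of -0.0396, beside 0.0385. For KO_siNr6a1 against WT_siCtrl it gave 2749 and 3587, beside 3181 and 3230.

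**Figure D1:**
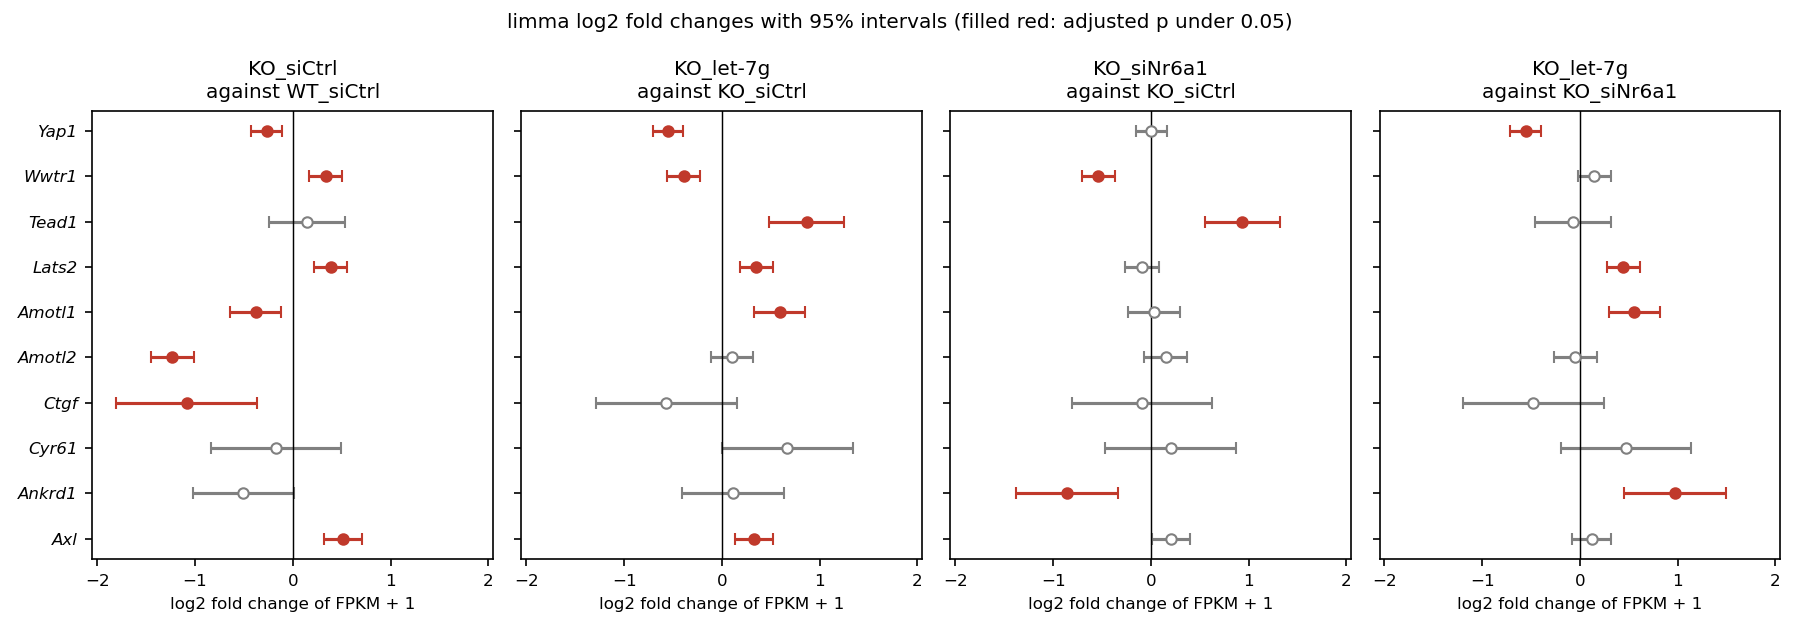
Log2 fold changes of FPKM + 1 (horizontal axis) for the 10 members (rows) in 4 comparisons, with 95% intervals from limma and filled red points at an adjusted p under 0.05. Tead1 lies right of 0 in both treatments against KO_siCtrl, while Yap1 lies left of 0 in KO_let-7g and at 0.00 in KO_siNr6a1.

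Yap1, which encodes YAP, was lowest in KO_let-7g cells. It stood at 33.1, 37.0 and 31.2 FPKM in KO_let-7g, 50.3, 48.9 and 50.7 in KO_siNr6a1, 48.4, 50.7 and 50.2 in KO_siCtrl, and 58.6, 63.1 and 58.6 in WT_siCtrl libraries. The KO_let-7g libraries lay below all others, the WT_siCtrl libraries lay above all others, and the KO_siNr6a1 and KO_siCtrl ranges overlapped. Yap1 fell in KO_let-7g against KO_siCtrl by 0.55 on the log2 scale (SE 0.072, adjusted p = 0.00012), and also against KO_siNr6a1 (-0.56, adjusted p = 0.000179). All 3 Dicer -/- groups were lower than WT_siCtrl, with log2 fold changes of -0.82 for KO_let-7g (adjusted p = 3.71e-06), -0.26 for KO_siNr6a1 (adjusted p = 0.00945) and -0.27 for KO_siCtrl (SE 0.072, adjusted p = 0.0086). For KO_siNr6a1 against KO_siCtrl the difference was 0.00, with a 95% interval of -0.15 to 0.16.

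Wwtr1, which encodes TAZ, followed a different order. Its libraries held 40.7, 45.8 and 41.5 FPKM in KO_let-7g, 40.7, 37.1 and 37.4 in KO_siNr6a1, 56.4, 58.9 and 53.2 in KO_siCtrl, and 47.5, 43.5 and 41.9 in WT_siCtrl. KO_siCtrl was the highest group and overlapped none of the others. It was above WT_siCtrl by 0.34 on the log2 scale (SE 0.077, adjusted p = 0.00335). Wwtr1 fell in both treated groups against KO_siCtrl, with log2 fold changes of -0.39 for KO_let-7g (SE 0.077, adjusted p = 0.00182) and -0.54 for KO_siNr6a1 (SE 0.077, adjusted p = 0.000542). Between the treatments the difference was 0.15 (95% interval -0.02 to 0.32, adjusted p = 0.151). KO_let-7g differed from WT_siCtrl by -0.05 (interval -0.22 to 0.12). KO_siNr6a1 was lower than WT_siCtrl (-0.20, adjusted p = 0.0468), a call lost in 11 of 23 alternative settings, among them without any 1 of WT_siCtrl replicates 0 and 1, KO_siCtrl replicates 0 and 1, KO_let-7g replicates 0 and 2 and KO_siNr6a1 replicates 1 and 2 (-0.15 and adjusted p = 0.149 without WT_siCtrl replicate 0).

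**Figure D2:**
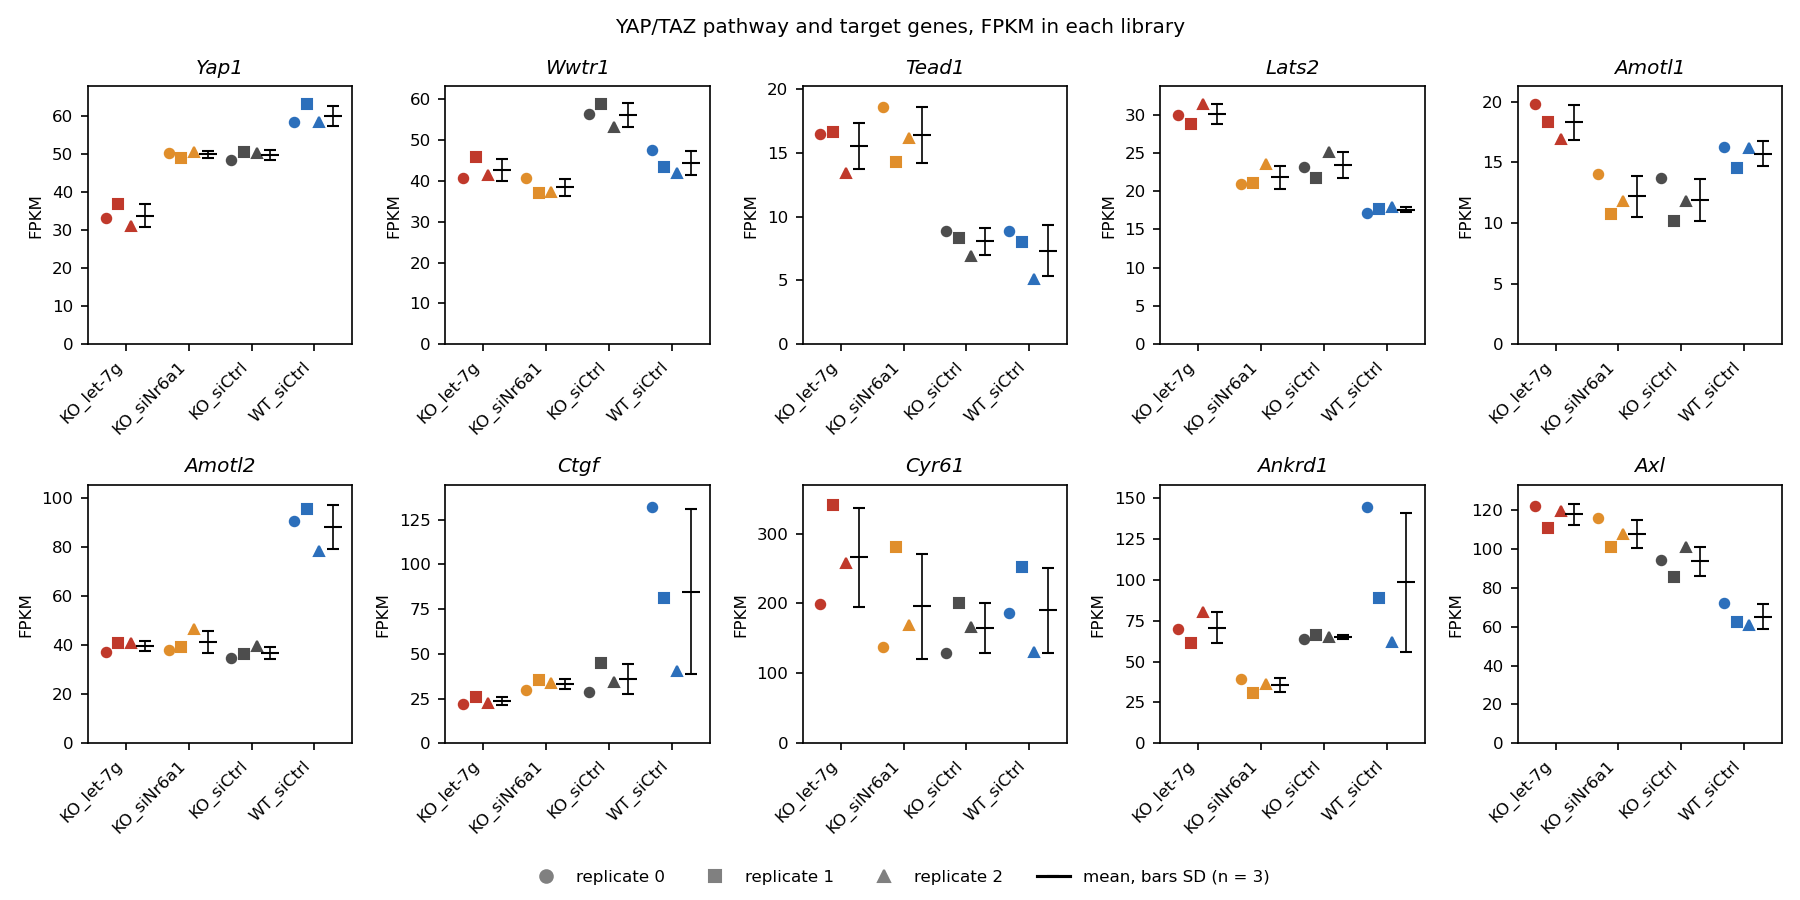
FPKM (vertical axis, from 0) of the 10 members in each library of the 4 groups, with symbols for the replicate number and black marks for the mean and SD of 3 libraries. Amotl2 is high in the 3 WT_siCtrl libraries (78.3 to 95.5 FPKM) and at 34.7 to 46.5 FPKM in the other 9, and Ctgf and Ankrd1 spread widely in WT_siCtrl.

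Tead1, which encodes a DNA-binding partner of YAP and TAZ, was about 2.03 times as high in KO_siNr6a1 and 1.93 times as high in KO_let-7g as in KO_siCtrl cells by mean FPKM. The libraries held 16.5, 16.6 and 13.4 FPKM in KO_let-7g, 18.6, 14.3 and 16.2 in KO_siNr6a1, 8.91, 8.36 and 6.92 in KO_siCtrl, and 8.88, 8.02 and 5.10 in WT_siCtrl. All 6 libraries of the treated cells lay above all 6 control siRNA libraries, and within each of these 2 sets the groups overlapped. The treatments and the absence of the nontargeting siRNA cannot be told apart here. Tead1 rose by 0.87 on the log2 scale in KO_let-7g (SE 0.176, adjusted p = 0.00216) and by 0.94 in KO_siNr6a1 (SE 0.176, adjusted p = 0.0027) against KO_siCtrl. The difference between the treatments was -0.07 (95% interval -0.46 to 0.32), and that of KO_siCtrl from WT_siCtrl was 0.14 (interval -0.24 to 0.53). Tead1 also exceeded WT_siCtrl, with log2 fold changes of 1.01 for KO_let-7g (adjusted p = 0.000526) and 1.08 for KO_siNr6a1 (adjusted p = 0.000348).

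The 3′ UTR of Tead1 (8147 bases, chromosome 7) held 8 copies of AGCCTT, a 6-base word that earlier results of these data had drawn attention to, since the median log2 fold change of genes that carry it lay above that of genes without it in both treated groups against KO_siCtrl. The copies are shown because Tead1 rose in both comparisons, with the word in capitals, in order along the 3′ UTR.
Tead1 site 1: taaactatAGCCTTaagacatg
Tead1 site 2: agcccctcAGCCTTgcagtgtc
Tead1 site 3: taaggttcAGCCTTaattgaaa
Tead1 site 4: ttctgaaaAGCCTTaaatctta
Tead1 site 5: tagccgccAGCCTTttctcagc
Tead1 site 6: ataaaagcAGCCTTtgtgtgtg
Tead1 site 7: tcatacccAGCCTTgctcagcc
Tead1 site 8: acctgaaaAGCCTTtacttctt
Amotl1 held 3 copies, Yap1, Ctgf, Amotl2 and Axl 1 copy each, and Wwtr1, Cyr61, Ankrd1 and Lats2 none. The word stood in 42.8% of tested genes with a 3′ UTR. Their median log2 fold change was 0.141 in KO_let-7g against KO_siCtrl, and 0.0329 for genes without it. The medians in KO_siNr6a1 against KO_siCtrl were 0.0306 with the word and -0.112 without. For the 23 tested genes with at least 8 copies the medians were 0.605 and 0.422 in the same comparisons. The cut of 8 is the count of Tead1, which is among the 23. Since the word was taken up from these same comparisons, its medians are not separate evidence on Tead1. Genes with the word had a median 3′ UTR of 2035 bases, against 719 bases without. The medians did not lie higher with the word in the comparisons outside these. For KO_siCtrl against WT_siCtrl they were 0.0253 with it and 0.0581 without. For KO_let-7g against KO_siNr6a1 they were 0.0924 with it and 0.143 without. The part of the word in the Tead1 result was not tested.

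TEAD factors are encoded by 4 genes, and each of the other 3 had an order of groups of its own. Tead2 averaged 40.0 ± 1.76 FPKM in KO_let-7g, 28.8 ± 1.63 in KO_siNr6a1, 12.5 ± 0.205 in KO_siCtrl and 25.2 ± 5.70 in WT_siCtrl libraries. It rose against KO_siCtrl by 1.60 in KO_let-7g cells (adjusted p = 6.27e-06) and by 1.14 in KO_siNr6a1 cells (adjusted p = 0.000144), and unlike Tead1 it was lower in KO_siCtrl than in WT_siCtrl (-0.94, adjusted p = 0.000112). Tead3 averaged 9.31, 10.9, 17.0 and 14.0 FPKM in the same order of groups. Tead3 fell in KO_let-7g (-0.78, adjusted p = 0.00704), while its lower value in KO_siNr6a1 (-0.57, adjusted p = 0.0456) lost its call without any 1 of 9 libraries (largest adjusted p = 0.162, without KO_siCtrl replicate 2). Tead4 averaged 6.61 ± 1.07 FPKM in KO_let-7g, 9.72 ± 1.57 in KO_siNr6a1, 13.7 ± 2.86 in KO_siCtrl and 0.679 ± 0.192 in WT_siCtrl libraries, a rise of 3.12 in KO_siCtrl against WT_siCtrl (adjusted p = 9.35e-08). It fell in KO_let-7g against KO_siCtrl (-0.95, adjusted p = 0.001). For KO_siNr6a1 against KO_siCtrl it differed by -0.45 (adjusted p = 0.0683, and 0.00418 with the replicate block). The summed FPKM of the 4 TEAD genes was 71.4 ± 0.756 in KO_let-7g, 65.7 ± 2.51 in KO_siNr6a1, 51.2 ± 5.92 in KO_siCtrl and 47.3 ± 6.26 in WT_siCtrl libraries. Tead1 made up 21.8%, 24.9%, 16.0% and 16.0% of it in the same order.

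**Figure D3:**
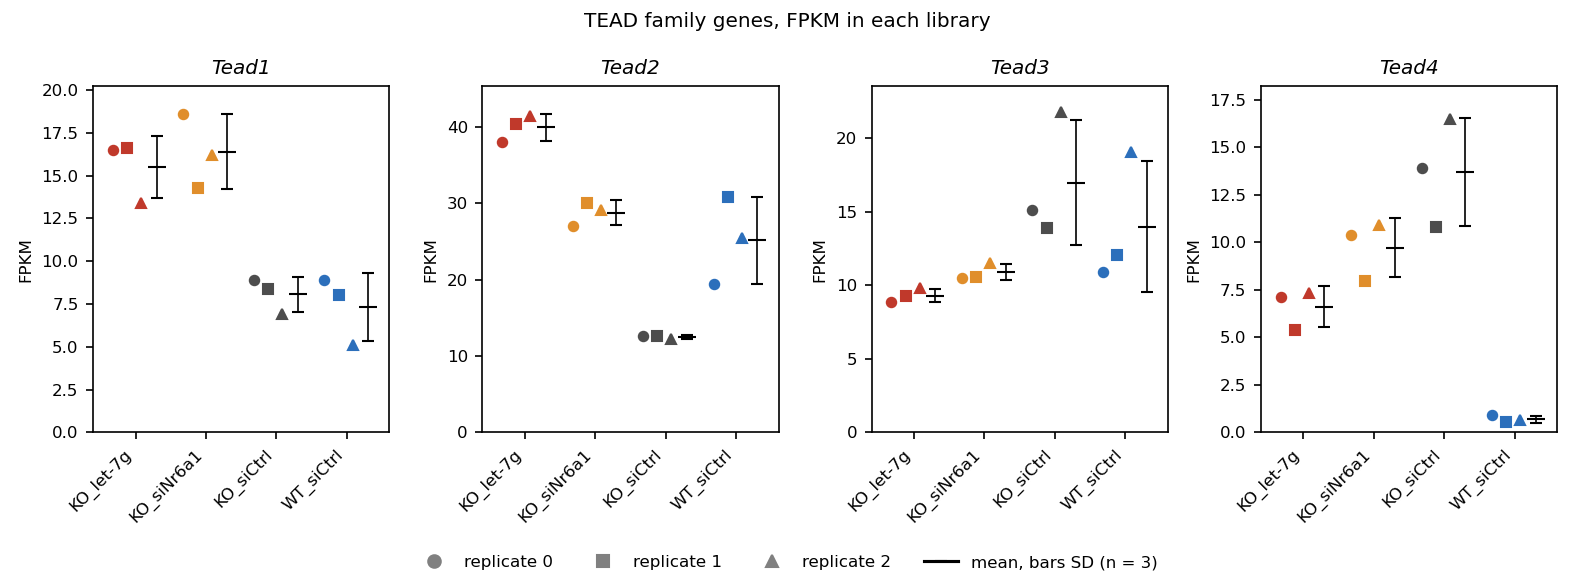
FPKM (vertical axis, from 0) of the 4 TEAD genes in each library, with symbols for the replicate number and black marks for the mean and SD of 3 libraries. Tead1 is high in both treated groups, Tead2 is lowest in KO_siCtrl, and Tead4 is under 1 FPKM only in WT_siCtrl.

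Among the restraining genes, Amotl2 and Lats2 each separated the Dicer f/f line from all Dicer -/- cells, in opposite directions. Amotl2 stood at 37.3, 40.9 and 40.9 FPKM in KO_let-7g, 37.9, 39.3 and 46.5 in KO_siNr6a1, 34.7, 36.4 and 39.6 in KO_siCtrl, and 90.7, 95.5 and 78.3 in WT_siCtrl libraries. The 3 WT_siCtrl libraries lay above all others, and the Dicer -/- groups overlapped. Amotl2 fell by 1.23 on the log2 scale in KO_siCtrl against WT_siCtrl (SE 0.0995, adjusted p = 1.94e-06), and it was also lower in KO_let-7g (-1.13, adjusted p = 3.76e-06) and KO_siNr6a1 (-1.08, adjusted p = 5.03e-06) than in WT_siCtrl. Against KO_siCtrl the differences were 0.10 in KO_let-7g (95% interval -0.12 to 0.32) and 0.15 in KO_siNr6a1 (-0.07 to 0.37), the second of which was called with library weights only (0.31, adjusted p = 0.0105).

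Amotl1, its paralog, was highest in KO_let-7g cells. The libraries held 19.8, 18.3 and 16.9 FPKM in KO_let-7g, 14.0, 10.7 and 11.8 in KO_siNr6a1, 13.7, 10.2 and 11.8 in KO_siCtrl, and 16.3, 14.5 and 16.2 in WT_siCtrl. KO_siNr6a1 and KO_siCtrl overlapped and lay below the WT_siCtrl libraries, which lay below those of KO_let-7g. Amotl1 rose in KO_let-7g by 0.59 on the log2 scale against KO_siCtrl (SE 0.12, adjusted p = 0.00214) and by 0.56 against KO_siNr6a1 (adjusted p = 0.00372). KO_let-7g differed from WT_siCtrl by 0.21 (interval -0.05 to 0.47, adjusted p = 0.156, and 0.0352 with the replicate block). KO_siCtrl was lower than WT_siCtrl (-0.38, adjusted p = 0.0189). That call did not hold without KO_siCtrl replicate 1 (adjusted p = 0.079), WT_siCtrl replicate 0 (0.0508) or WT_siCtrl replicate 2 (0.0518), and with library weights (0.0629). KO_siNr6a1 was also lower than WT_siCtrl (-0.35, adjusted p = 0.0291), and that call was lost without WT_siCtrl replicate 0 (0.0721) or 2 (0.0736) or without KO_siNr6a1 replicate 1 (0.11) or 2 (0.0798). KO_siNr6a1 differed from KO_siCtrl by 0.03 (interval -0.23 to 0.30).

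Lats2, which encodes a kinase that phosphorylates YAP and TAZ, had its lowest values in WT_siCtrl. The libraries held 30.0, 28.8 and 31.4 FPKM in KO_let-7g, 20.9, 21 and 23.6 in KO_siNr6a1, 23.2, 21.7 and 25.1 in KO_siCtrl, and 17.2, 17.7 and 17.9 in WT_siCtrl. KO_let-7g lay above the rest, WT_siCtrl lay below all Dicer -/- libraries, and KO_siNr6a1 and KO_siCtrl overlapped. Lats2 rose in KO_siCtrl against WT_siCtrl by 0.39 on the log2 scale (SE 0.0776, adjusted p = 0.0015) and again in KO_let-7g against KO_siCtrl by 0.35 (SE 0.0776, adjusted p = 0.00344). KO_let-7g also exceeded KO_siNr6a1, by 0.44 (adjusted p = 0.00111), a value of 0.29 with median of ratios scaling (adjusted p = 0.0125). KO_siNr6a1 differed from KO_siCtrl by -0.09 (interval -0.26 to 0.08). Both treated groups exceeded WT_siCtrl, KO_let-7g by 0.74 (adjusted p = 1.37e-05) and KO_siNr6a1 by 0.29 (adjusted p = 0.00756).

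Ctgf, a secreted matricellular protein gene often used as a readout of YAP/TAZ activity, was lower in Dicer -/- cells. The libraries held 21.9, 25.9 and 22.6 FPKM in KO_let-7g, 29.9, 35.5 and 33.9 in KO_siNr6a1, 28.4, 44.9 and 34.1 in KO_siCtrl, and 132, 81.4 and 40.2 in WT_siCtrl. WT_siCtrl replicate 0 was the highest library and WT_siCtrl replicate 2 lay below KO_siCtrl replicate 1, so these 2 groups overlapped, while KO_let-7g lay below every other library. Ctgf fell by 1.08 on the log2 scale in KO_siCtrl against WT_siCtrl (SE 0.327, adjusted p = 0.0153), and without WT_siCtrl replicate 0 the difference was -0.69 (adjusted p = 0.0452). This call did not hold when KO_siCtrl replicate 0 was left out (adjusted p = 0.0568) or when these 2 groups were fitted alone (0.0557). It also fell in KO_let-7g against WT_siCtrl (-1.65, SE 0.327, adjusted p = 0.00125) and in KO_siNr6a1 against WT_siCtrl (-1.17, adjusted p = 0.0102, and -0.78 without WT_siCtrl replicate 0, adjusted p = 0.0274). KO_let-7g differed from KO_siCtrl by -0.57 (interval -1.29 to 0.15, adjusted p = 0.181), without overlap between the libraries. That difference was called in a fit of the 2 groups alone (adjusted p = 0.0292) and without WT_siCtrl replicate 2 (0.0329). In the reported fit all groups share 1 estimate of the spread. The SD of Ctgf was 46.2 FPKM in WT_siCtrl, 2.15 in KO_let-7g, 2.86 in KO_siNr6a1 and 8.34 in KO_siCtrl. KO_let-7g differed from KO_siNr6a1 by -0.48 (interval -1.20 to 0.24), called in the fit of these 2 groups alone (0.00862) and with library weights (0.0265). KO_siNr6a1 differed from KO_siCtrl by -0.09 (interval -0.81 to 0.63).

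Cyr61, a second matricellular gene of the same family, did not follow Ctgf. Its libraries held 199.8, 341 and 258 FPKM in KO_let-7g, 138, 281 and 169 in KO_siNr6a1, 129.7, 201 and 166 in KO_siCtrl, and 187, 252 and 131 in WT_siCtrl. In all 4 groups replicate 1 was the highest library, and all groups overlapped. No comparison called Cyr61 in the reported fit. The difference nearest to a call was KO_let-7g against KO_siCtrl, at 0.67 on the log2 scale (SE 0.304, interval 0.00 to 1.34, adjusted p = 0.0935). With the replicate block, which compares libraries of the same number, limma gave an adjusted p of 0.00543 for it, 0.0317 for KO_let-7g against KO_siNr6a1 and 0.019 for KO_let-7g against WT_siCtrl. KO_siCtrl differed from WT_siCtrl by -0.17 (interval -0.84 to 0.50) and KO_siNr6a1 from KO_siCtrl by 0.20 (interval -0.47 to 0.87).

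Ankrd1, which encodes an ankyrin repeat protein of muscle and stromal cells, was lowest in KO_siNr6a1 cells. Its libraries held 70.2, 61.5 and 80.7 FPKM in KO_let-7g, 39.4, 30.9 and 36.4 in KO_siNr6a1, 63.7, 66.6 and 65.0 in KO_siCtrl, and 145, 88.8 and 61.9 in WT_siCtrl. The KO_siNr6a1 libraries lay below all others, and the other 3 groups overlapped. Ankrd1 fell in KO_siNr6a1 by 0.86 on the log2 scale against KO_siCtrl (SE 0.237, adjusted p = 0.0189) and further against WT_siCtrl (-1.37, adjusted p = 0.000533). The call against KO_siCtrl did not hold without KO_siCtrl replicate 1 (-0.84, adjusted p = 0.0531) or KO_siNr6a1 replicate 1 (-0.76, adjusted p = 0.0675). KO_let-7g exceeded KO_siNr6a1 by 0.97 (SE 0.237, adjusted p = 0.00734) and differed from KO_siCtrl by 0.11 (interval -0.41 to 0.63). The spread behind these intervals is shared by all groups. The SD of Ankrd1 was 42.5 FPKM in WT_siCtrl, 9.62 in KO_let-7g, 4.32 in KO_siNr6a1 and 1.45 in KO_siCtrl. KO_siCtrl differed from WT_siCtrl by -0.51 (interval -1.03 to 0.01, adjusted p = 0.0926), which was called without WT_siCtrl replicate 2 (-0.79, adjusted p = 0.00564) and with library weights (0.0274). KO_let-7g differed from WT_siCtrl by -0.40 (adjusted p = 0.176), also called without WT_siCtrl replicate 2 (-0.68, adjusted p = 0.0113).

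Axl, a receptor tyrosine kinase gene for the ligand Gas6 and a known YAP target, was lowest in WT_siCtrl. The libraries held 122, 111 and 119.9 FPKM in KO_let-7g, 116, 101 and 108 in KO_siNr6a1, 94.3, 85.8 and 101 in KO_siCtrl, and 72.5, 62.4 and 61.1 in WT_siCtrl. WT_siCtrl lay below all Dicer -/- libraries and the treatments overlapped. Axl rose in KO_siCtrl against WT_siCtrl by 0.51 on the log2 scale (SE 0.0895, adjusted p = 0.000562) and in KO_let-7g against KO_siCtrl by 0.33 (SE 0.0895, adjusted p = 0.0114, and 0.0747 with median of ratios scaling). KO_siNr6a1 differed from KO_siCtrl by 0.21 (interval 0.01 to 0.40, adjusted p = 0.105, and 0.0259 with the replicate block). KO_let-7g differed from KO_siNr6a1 by 0.12 (interval -0.08 to 0.32). Against WT_siCtrl, Axl was higher by 0.84 in KO_let-7g (adjusted p = 1.51e-05) and by 0.72 in KO_siNr6a1 (adjusted p = 4.73e-05). Averaged over the 12 libraries, Cyr61 was the most abundant member (205 FPKM, above 96.3% of tested genes), followed by Axl (96.2 FPKM), and Tead1 the least (11.8 FPKM, above 39.5%).

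Ratios within a library do not depend on how libraries are scaled, and 3 pairs of related members were compared in this way. Yap1 to Wwtr1 was 0.812, 0.809 and 0.752 in KO_let-7g, 1.24, 1.32 and 1.35 in KO_siNr6a1, 0.859, 0.861 and 0.944 in KO_siCtrl, and 1.23, 1.45 and 1.40 in WT_siCtrl libraries. The ratio was under 1 in KO_let-7g and KO_siCtrl and above 1 in the other 2 groups. With 3 libraries against 3, a two-sided exact permutation test cannot give a p below 0.1, and it gave 0.1 in 5 of the 6 comparisons of this ratio and 0.5 for KO_siNr6a1 against WT_siCtrl. Cyr61 to Ctgf was 9.13, 13.2 and 11.4 in KO_let-7g, 4.63, 7.92 and 5.0 in KO_siNr6a1, 4.56, 4.48 and 4.86 in KO_siCtrl, and 1.41, 3.09 and 3.27 in WT_siCtrl libraries. The KO_let-7g libraries lay above and the WT_siCtrl libraries below all others, and only KO_siNr6a1 and KO_siCtrl overlapped (exact permutation p = 0.2, and 0.1 in the other 5 comparisons). Amotl2 to Amotl1 averaged 2.18 ± 0.271 in KO_let-7g, 3.43 ± 0.646 in KO_siNr6a1, 3.15 ± 0.539 in KO_siCtrl and 5.65 ± 0.879 in WT_siCtrl libraries, with an exact permutation p of 0.5 for KO_siNr6a1 against KO_siCtrl and 0.1 for the other 5. Over these 18 tests no Benjamini-Hochberg adjusted p can pass 0.05.

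**Figure D4:**
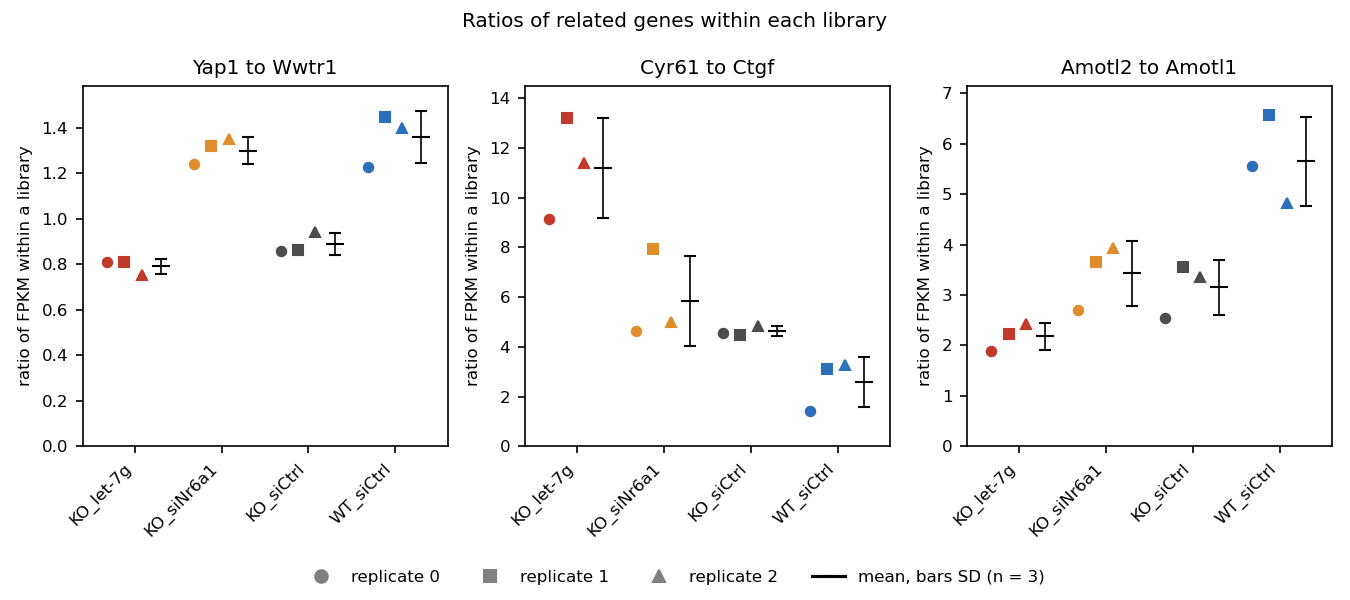
Ratio of the FPKM of 2 members within each library (vertical axis, from 0) for 3 pairs, with symbols for the replicate number and black marks for the mean and SD of 3 libraries. Cyr61 to Ctgf is highest in KO_let-7g, at 9.13 to 13.2, and lowest in WT_siCtrl, at 1.41 to 3.27.

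Of 32 other Hippo pathway components, 29 were tested. In KO_siCtrl against WT_siCtrl 9 rose and 7 fell, beside 29.1% higher and 25.2% lower of all tested genes, with a median log2 fold change of 0.07, beside 0.0385 for all tested genes. Besides Tead4 the smallest adjusted p belonged to Vgll3, a cofactor that binds TEAD, which fell to 4.21 ± 0.429 FPKM in KO_siCtrl, against 18.0 ± 2.84 in WT_siCtrl (-1.86, adjusted p = 9.21e-07). Stk38l, a kinase related to LATS, rose (0.94, adjusted p = 6.25e-06) and Rassf1, a scaffold of the upstream kinases, fell (-1.06, adjusted p = 7.57e-06). In KO_let-7g against KO_siCtrl 5 rose and 6 fell, beside 27.5% and 18.2% of all tested genes (median -0.09, beside 0.0764). Amot, the third angiomotin, fell to 9.96 ± 2.29 FPKM in KO_let-7g, against 27.2 ± 3.94 in KO_siCtrl (-1.38, adjusted p = 7.61e-05), the opposite direction to Amotl1. Stk38, a second LATS-related kinase, rose (0.45, adjusted p = 0.00026) and Limd1, a LIM protein that binds LATS, fell (-0.52, adjusted p = 0.000555). In KO_siNr6a1 against KO_siCtrl 4 rose and 7 fell, beside 13.2% and 16.3% (median -0.21, beside -0.0592). The counts were 4 and 14 with the replicate block and 5 and 13 with library weights, and without KO_siCtrl replicate 2 or KO_siNr6a1 replicate 1 they were 3 and 4. Vgll4, a cofactor that competes with YAP for TEAD, rose to 30.1 ± 2.32 FPKM in KO_siNr6a1, against 16.0 ± 1.29 in KO_siCtrl (0.87, adjusted p = 0.000844), and Rassf1 fell (-0.74, adjusted p = 0.000444). In KO_let-7g against KO_siNr6a1 7 rose and 4 fell, beside 27.6% and 13.3% (median 0.11, beside 0.124), but 1 rose and 4 fell with median of ratios scaling.

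Of 15 other genes known as YAP/TAZ targets in various cells, 13 were tested. In KO_siCtrl against WT_siCtrl 6 rose and 3 fell, where 29.1% and 25.2% of all tested genes did, and the median log2 fold change was 0.36, beside 0.0385 for all genes. Gadd45a, a stress-induced growth arrest gene, rose to 57.8 ± 2.59 FPKM in KO_siCtrl, against 24.2 ± 3.64 in WT_siCtrl (1.23, adjusted p = 3.6e-05), and Rbms3, an RNA-binding protein gene, fell (-1.64, adjusted p = 7.35e-07). In KO_let-7g against KO_siCtrl 3 rose and 6 fell, where 27.5% and 18.2% of all genes did (median -0.25, beside 0.0764), or 1 and 4 without KO_siCtrl replicate 0 or KO_let-7g replicate 2. Asap1, an Arf GTPase-activating protein gene, fell to 21.6 ± 3.64 FPKM in KO_let-7g, against 79.1 ± 6.85 in KO_siCtrl (-1.83, adjusted p = 6.87e-06). F3, the tissue factor gene, fell (-1.25, adjusted p = 0.000567), as did Nuak2, a kinase gene of the AMPK family (-0.75, adjusted p = 0.00144). In KO_siNr6a1 against KO_siCtrl 2 rose and 3 fell, where 13.2% and 16.3% of all genes did (median -0.11, beside -0.0592), 4 and 6 with the replicate block or library weights, and 1 and 2 without any 1 of KO_siCtrl replicate 0 and KO_siNr6a1 replicates 1 and 2. Gadd45a fell there (-1.23, adjusted p = 0.000178), Nuak2 fell (-0.85, adjusted p = 0.00137) and Foxf2, a forkhead factor gene, rose (1.01, adjusted p = 0.000451). In KO_let-7g against KO_siNr6a1 2 rose and 4 fell, where 27.6% and 13.3% of all genes did (median -0.14, beside 0.124). Gadd45a was at 80.8 ± 14.4 FPKM in KO_let-7g, against 24.2 ± 3.55 in KO_siNr6a1 (1.69, adjusted p = 1.85e-05).

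Ctgf and Cyr61 belong to the CCN family, of which 3 of 4 other genes were tested. Nov fell with Ctgf in KO_siCtrl against WT_siCtrl, to 1.06 ± 0.505 FPKM in KO_siCtrl, against 13.5 ± 2.46 in WT_siCtrl (-2.83, adjusted p = 8.8e-06). Wisp1 rose in KO_siNr6a1 against KO_siCtrl (0.88, adjusted p = 0.00357), where Nov was also called (0.84, adjusted p = 0.0432, lost without any 1 of 5 libraries, and 0.49 without KO_siNr6a1 replicate 1). Wisp2 (0.80, adjusted p = 0.0324) and Wisp1 (0.50, adjusted p = 0.0349) were called higher in KO_let-7g against KO_siCtrl, and both calls were lost without KO_siCtrl replicate 0 or 2 or without KO_let-7g replicate 0 or 1. Ctgf also responds to TGF-beta, and of 12 TGF-beta pathway and response genes 3 rose and 3 fell in KO_siCtrl against WT_siCtrl (1 and 2 without WT_siCtrl replicate 1 or KO_siCtrl replicate 0), led by Ltbp2 (-2.68, adjusted p = 1.02e-08). Their median there was 0.13, and the shares of all genes were 29.1% and 25.2% with a median of 0.0385. In KO_let-7g against KO_siCtrl 1 rose and 3 fell (median -0.19), beside 27.5% and 18.2% of all genes (median 0.0764). There the receptor gene Tgfbr1 fell to 8.77 ± 1.76 FPKM in KO_let-7g, against 30.3 ± 5.86 in KO_siCtrl (-1.68, adjusted p = 1.08e-05), and Skil, a feedback inhibitor of the pathway, fell (-1.13, adjusted p = 0.000327). Of the 12, 2 rose and 0 fell in KO_siNr6a1 against KO_siCtrl, beside 13.2% and 16.3% of all genes (median of the 12 -0.01, of all genes -0.0592). Bhlhe40, a transcription factor gene, rose there (0.84, adjusted p = 0.00111), as did Ltbp2 (0.35, adjusted p = 0.0293, lost without any 1 of 5 libraries). Against KO_siNr6a1, 0 of the 12 rose and 3 fell in KO_let-7g, beside 27.6% and 13.3% of all genes (median of the 12 -0.21, of all genes 0.124). The number that fell was 7 with median of ratios scaling, and 4 fell and 1 rose with the replicate block.

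The genes whose pattern over the 12 libraries was most like that of 3 classic targets were sought among 9404 tested genes whose FPKM averaged 5 or more, by the root mean square difference of centred log2(FPKM + 1) values. For Ctgf they were Pcolce2 (0.344), Elovl4 (0.348) and Rnf7 (0.352), where the SD of Ctgf itself was 0.713. Pcolce2 averaged 19.5, 25.8, 37.2 and 68.0 FPKM in KO_let-7g, KO_siNr6a1, KO_siCtrl and WT_siCtrl libraries. For Cyr61 they were Rpa3 (0.244), Gnpnat1 (0.251) and St7l (0.257), beside an SD of 0.431. For Ankrd1 they were Anln (0.236), Zfp280d (0.255) and Pdgfc (0.262), beside an SD of 0.567. Anln averaged 76.6, 42.6, 62.7 and 107 FPKM in the same order of groups. Neither Cyr61 nor Ankrd1 stood among the 3 genes nearest to Ctgf. With 9404 genes searched and only 3 kept, this does not show how far their patterns lay from that of Ctgf.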

How the data were processed

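The authors deposited 1 table of FPKM values for 21881 genes in 12 libraries. The submitters' processing notes name mouse build mm9, Cufflinks 1.0.3 and TopHat 1.2.0, with settings and use of strand not given in the sources used here. Gm20416 and Gm15270 overlap Yap1 and Ctgf on the opposite strand, and Gm49361 overlaps Lats2. Groups and replicate numbers 0 to 2 came from the titles. The labels do not state separate cultures. The p-values therefore cover just the spread of these 12 libraries, possibly a technical one.

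Testing covered the 11801 genes that reached FPKM 1 in 3 or more libraries, with limma 3.58.1 (R 4.3.3) on log2(FPKM + 1), which understates the change of low genes, in 1 model of 12 libraries (8 residual degrees of freedom) with a variance trend and Benjamini-Hochberg adjustment, called at 0.05. The script was tested on simulated data. Ratios were compared with SciPy 1.17.1. The 23 alternatives changed the pseudocount, filter, scaling, variance model, groups fitted or libraries, or added the replicate number as a block. Same-number libraries deviated together (correlations 0.127 to 0.465 in 5 of 6 comparisons), although no label says that the numbers pair them. In KO_siNr6a1 against WT_siCtrl the lowest correlation was 0.0915. All 12 libraries correlated best, on average, with libraries of their own number in the other groups. The reported fit still left the numbers out, so it can miss differences that the replicate block calls. For Cyr61 in KO_let-7g against KO_siCtrl the limma adjusted p was 0.0935, and 0.00543 with the block. The table gives no read counts. Relative depth was estimated from the most common ratio of values under 0.3 FPKM between each library and KO_siCtrl replicate 0. It was 1.34 to 1.82 in KO_let-7g, 1.13 to 1.56 in KO_siNr6a1, 1 to 1.31 in KO_siCtrl and 1.11 to 1.29 in WT_siCtrl libraries. The part of depth in the results was not tested.

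The members, gene lists and tests were chosen with earlier results of these data known. Named genes were the members, Nr6a1, Dicer1, Tead2 to Tead4, up to 4 genes with the smallest adjusted p per list and comparison, and the 3 patterns nearest to each of Ctgf, Cyr61 and Ankrd1. Sequences came from RefSeq (GRCm38.p6) and GENCODE M21, matched by symbol.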

Additional observations from a re-analysis of the deposited data

How the results depend on the processing

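Of 60 member results (10 genes in 6 comparisons), 35 were called, and 29 of these calls were kept under all 23 alternatives. The other 6 were lost under at least 1, and 12 of 25 results without a call gained one under at least 1, as given above for the main cases. Without 1 library at a time, the members called numbered 6 to 7 in KO_siCtrl against WT_siCtrl, 6 to 7 in KO_let-7g against KO_siCtrl, 2 to 3 in KO_siNr6a1 against KO_siCtrl, 4 in KO_let-7g against KO_siNr6a1, 6 to 7 in KO_let-7g against WT_siCtrl and 7 to 9 in KO_siNr6a1 against WT_siCtrl. Library weights gave 5 members (3 in the reported fit) and 5528 genes (3474) in KO_siNr6a1 against KO_siCtrl, and 7 members (4) in KO_let-7g against KO_siNr6a1. The replicate block gave 5248 genes in KO_siNr6a1 against KO_siCtrl. In KO_siNr6a1 against WT_siCtrl, where 1 of the 3 same-number correlations (0.0915) was under 0.1, the replicate block called 7779 genes (6411) and left every member call as it was. The cause of these shifts was not tested.

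Signs turned only for differences without a call. With upper quartile scaling Cyr61 in KO_siNr6a1 against WT_siCtrl turned to -0.026, and with library weights to -0.35. In KO_siNr6a1 against KO_siCtrl, library weights turned Ctgf to 0.0065, Amotl1 to -0.041 and Lats2 to 0.0035. In KO_let-7g against KO_siNr6a1, median of ratios scaling turned Wwtr1 to -0.011 and Axl to -0.040, and quantile scaling turned Nr6a1 to -0.032. Without 1 library at a time, the log2 differences that crossed 0 had these ranges. In KO_siCtrl against WT_siCtrl they were -0.065 to 0.28 for Tead1 and -0.41 to 0.056 for Cyr61. In KO_siNr6a1 against KO_siCtrl they were -0.015 to 0.020 for Yap1, -0.24 to 0.082 for Ctgf, -0.088 to 0.42 for Cyr61, -0.064 to 0.13 for Amotl1 and -0.029 to 0.28 for the log2 ratio of Amotl2 to Amotl1. In KO_let-7g against KO_siNr6a1 they were -0.16 to 0.025 for Tead1, -0.10 to 0.040 for Amotl2, -0.011 to 0.26 for Nr6a1 and -0.49 to 0.060 for Nov. For Cyr61 in KO_siNr6a1 against WT_siCtrl the range was -0.26 to 0.26. With 3 libraries a group and no read counts, counting error cannot be given, and the intervals of Ctgf, Cyr61 and Ankrd1 span over 1 log2 unit, which limits what a missing call says.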
